A study of Mus musculus with 20 samples.

Results

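The genes described here are 39 interferon-stimulated genes, a set of symbols chosen by name from the textbook interferon response. All 39 were present among the 43472 gene symbols of the count table. Their levels were followed in ventral prostates of mice that had all been orchidectomised and then given testosterone or vehicle for 4 days, 5 libraries in each of 4 groups. The wild-type (WT) groups were C57BL/6J. The ARNoC/Y groups carry the ARNoC allele of the X-linked androgen receptor gene, in which the receptor's amino-terminal part is known to have lost its contact with the carboxyl-terminal part, and are called ARNoC below. Both genotypes had therefore lost the testes as a source of androgen, and only the testosterone groups had androgen replaced. The labels used here state neither the dose, the ages nor the number of animals behind each library, so every p-value below measures the spread between libraries, which may in part be technical.

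Interferons are cytokines secreted by cells that sense viral or misplaced nucleic acid. Type I interferons act through the receptor chains Ifnar1 and Ifnar2, whose kinases phosphorylate Stat2. Together with Irf9 it acts in the factor ISGF3, which binds the interferon-stimulated response element (ISRE) in the promoters of its target genes. Interferon gamma acts mainly through another element, the gamma-activated sequence (GAS). The target genes include nucleic acid sensors, enzymes that degrade or tag RNA and protein, membrane proteins that hinder virus entry and release, and GTPases that attack pathogens inside cells. The ventral prostate is a lobe of secretory epithelium in a smooth muscle and fibroblast stroma. Orchidectomy causes it to regress, and testosterone restores secretion.

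The promoter letters show which members carry an ISRE or GAS core and which members lack both. Promoter windows of 300 bases, from 250 bases before the annotated start to 50 bases from the start on, were available for 29 members in RefSeq on the build GRCm38.p6. The other 10 members (Parp9, Mx2, Usp18, Dhx58, Ifi27, Parp14, Zbp1, Oas2, Mx1 and Rtp4) were not looked at. Each window was searched on both strands for the ISRE core, TTTC followed by any 2 bases and TTTC (on the other strand GAAA, any 2 bases and GAAA), and for the GAS core TTCNNNGAA. Matches were allowed to overlap, and N stands for any base. The 8 windows below were chosen to cover members that rose, members that fell and windows with and without a match, and capitals mark the matches.
Isg15: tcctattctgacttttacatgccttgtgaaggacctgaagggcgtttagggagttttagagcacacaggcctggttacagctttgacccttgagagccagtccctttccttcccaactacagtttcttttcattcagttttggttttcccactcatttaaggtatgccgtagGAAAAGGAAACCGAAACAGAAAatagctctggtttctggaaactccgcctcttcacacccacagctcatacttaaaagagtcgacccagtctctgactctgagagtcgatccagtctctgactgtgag
Rsad2: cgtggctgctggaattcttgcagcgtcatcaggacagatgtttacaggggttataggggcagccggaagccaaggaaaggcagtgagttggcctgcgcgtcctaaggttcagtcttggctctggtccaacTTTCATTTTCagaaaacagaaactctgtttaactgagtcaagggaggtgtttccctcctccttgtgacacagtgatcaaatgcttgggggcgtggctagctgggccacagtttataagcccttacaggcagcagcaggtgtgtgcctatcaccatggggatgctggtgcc
Stat2: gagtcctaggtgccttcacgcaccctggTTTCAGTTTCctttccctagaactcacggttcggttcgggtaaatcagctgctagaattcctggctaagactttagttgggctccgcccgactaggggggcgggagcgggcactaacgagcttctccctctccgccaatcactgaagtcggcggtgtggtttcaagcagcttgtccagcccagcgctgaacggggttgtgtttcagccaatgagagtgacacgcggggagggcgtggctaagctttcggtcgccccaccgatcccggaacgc
Bst2: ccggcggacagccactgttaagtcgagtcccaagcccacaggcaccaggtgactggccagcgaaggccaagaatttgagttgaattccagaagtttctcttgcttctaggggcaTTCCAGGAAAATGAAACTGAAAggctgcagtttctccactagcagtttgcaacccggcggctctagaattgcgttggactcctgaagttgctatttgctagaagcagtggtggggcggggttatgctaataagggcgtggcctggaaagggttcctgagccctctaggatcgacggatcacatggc
Isg20: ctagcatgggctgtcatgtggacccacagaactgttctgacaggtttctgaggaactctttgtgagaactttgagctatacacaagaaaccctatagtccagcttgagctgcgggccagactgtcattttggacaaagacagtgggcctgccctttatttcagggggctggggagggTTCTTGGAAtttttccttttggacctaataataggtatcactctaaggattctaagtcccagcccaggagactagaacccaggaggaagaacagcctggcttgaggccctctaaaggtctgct
Gbp2: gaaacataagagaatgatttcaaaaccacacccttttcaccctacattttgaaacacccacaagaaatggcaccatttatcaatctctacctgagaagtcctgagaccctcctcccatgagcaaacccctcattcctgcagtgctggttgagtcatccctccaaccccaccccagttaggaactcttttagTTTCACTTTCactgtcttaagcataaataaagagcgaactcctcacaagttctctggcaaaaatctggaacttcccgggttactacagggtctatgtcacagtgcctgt
Gbp7: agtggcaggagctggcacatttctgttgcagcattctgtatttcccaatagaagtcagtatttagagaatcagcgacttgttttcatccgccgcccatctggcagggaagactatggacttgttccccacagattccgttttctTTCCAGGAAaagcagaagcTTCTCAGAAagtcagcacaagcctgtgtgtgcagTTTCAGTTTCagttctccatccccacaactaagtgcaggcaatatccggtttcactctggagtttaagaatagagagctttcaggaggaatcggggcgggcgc
Ifitm1: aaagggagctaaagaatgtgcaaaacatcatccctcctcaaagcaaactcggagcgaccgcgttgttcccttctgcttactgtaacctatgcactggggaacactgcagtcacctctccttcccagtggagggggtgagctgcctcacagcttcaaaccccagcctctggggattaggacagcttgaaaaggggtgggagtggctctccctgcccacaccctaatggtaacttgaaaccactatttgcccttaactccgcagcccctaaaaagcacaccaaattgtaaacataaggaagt

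Isg15 lies at the minus strand window chr4:156200769-156201068, Rsad2 at chr12:26456403-26456702 on the minus strand, Stat2 at chr10:128270248-128270547 on the plus strand and Bst2 at chr8:71537423-71537722 on the minus strand. Isg20 lies at chr7:78913174-78913473, Gbp2 at chr3:142620413-142620712, Gbp7 at chr3:142530086-142530385 and Ifitm1 at chr7:140967826-140968125, all 4 on the plus strand. Isg20 is the only one of the 8 with more than 1 annotated start, and 1 of its 3 is shown. The Isg15 window held 3 overlapping ISRE cores, Bst2 had 2 with 1 GAS core, and Rsad2, Stat2 and Gbp2 had 1 ISRE core each. Gbp7 had 1 ISRE core and 2 GAS cores, Isg20 had a GAS core alone, and Ifitm1 had neither. A match is a description of letters, not a bound site, and its absence says only that these letters are not in the window.

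The ISRE core occurred in 18 of the 29 members with a window (62.1%), against 3.99% of all 27025 genes in the promoter table. The GAS core occurred in 8 of the 29 members (27.6%), against 9.55% of all genes. Of the 28 ISRE matches in member windows, 24 began upstream of the start and 22 of these lay within 150 bases of it. With the genotypes pooled, members of each direction of response carried the ISRE core. It was present in 4 of 6 members with a window that rose with testosterone in either genotype (66.7%), in 4 of 6 that fell in either genotype (66.7%) and in 10 of 17 that did neither (58.8%). Of the 2 members that fell in ARNoC, Ifit2 and Ifitm1, 0 carried it.

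**Figure D1:**
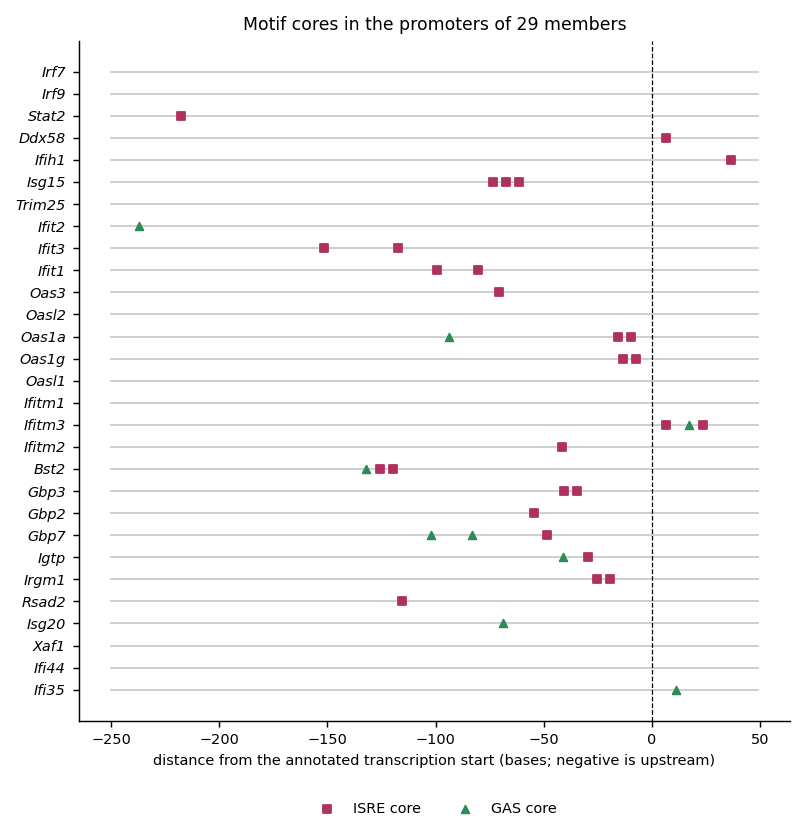
Positions of ISRE cores (squares) and GAS cores (triangles) in the promoter windows of the 29 members with a sequence, as distance in bases from the annotated start (dashed line). Of the 28 ISRE cores, 24 begin upstream of the start, and the 3 overlapping cores of Isg15 form 1 cluster there.

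All 39 members passed the filter on low values, 10 normalized counts or more in at least 5 of the 20 libraries, and 35 did so in every library. The exceptions were Ifitm1, Oas2, Oas3 and Zbp1, which were below 10 in at least 1 library. Normalized counts are read counts over each library's DESeq2 size factor, and the libraries held 8861646 to 21600352 counts. The secretory markers of the ventral prostate were abundant in every library: the 9 listed genes, led by Sbp and Spink3, summed to 338635 to 687444 normalized counts with vehicle and to 1665000 to 3372140 with testosterone over both genotypes. Immune markers were present as well. In WT, 15 macrophage and myeloid markers summed to 3763 to 20955 normalized counts with vehicle and to 1858 to 4069 with testosterone. In ARNoC the same sums were 3395 to 14052 with vehicle and 3082 to 6087 with testosterone. No myeloid marker was at 0 in any library. In bulk tissue, fewer cells of a type and less RNA per cell cannot be told apart.

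Per kilobase of annotated exon, Ifitm3 and Ifitm2 were the most abundant members. In WT vehicle prostates the level was 1775 ± 439.2 normalized counts per kilobase for Ifitm3 and 1464 ± 127 for Ifitm2 (mean ± SD, n = 5), which restrict virus entry. Ifi27, a small mitochondrial protein, followed at 826.5 ± 154 and Bst2, which tethers budding virus to the cell surface, at 397 ± 73.9. Oas3, an oligoadenylate synthetase, was lowest at 1.94 ± 1.43. In the order of the 39 members, Isg20 moved from rank 23 at 64.1 ± 13.8 normalized counts per kilobase to rank 5 at 421.5 ± 105 with testosterone in WT. These 2 Isg20 ranges did not overlap, whereas Ifitm3 and Ifitm2 differed by less than their spread.

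Testosterone moved the interferon-stimulated genes in both directions. In WT, 15 of 39 members (38.5%) passed an adjusted p of 0.05 in edgeR's quasi-likelihood test, against 39.2% of the 15261 genes tested. Of these, 6 rose (15.4%, against 20.4% of all genes) and 9 fell (23.1%, against 18.8%). In ARNoC, 11 of 39 passed (28.2%, against 36.2% of all genes), of which 9 rose (23.1%, against 19.4%) and 2 fell (5.13%, against 16.8%). The share of members called was therefore close to the share of all genes in WT and lower in ARNoC. The median log2 change of the members was -0.20 in WT and 0.23 in ARNoC, beside -0.02 and -0.01 for all genes tested. Leaving out WT vehicle library 1 brought the WT median to -0.048, and leaving out ARNoC testosterone library 3 brought the ARNoC median to 0.089. The 6 that rose in WT, all of which also rose in ARNoC, were Isg20, Mx1, Rsad2, Mx2, Stat2 and Bst2, and they made up 66.7% of the ARNoC risers. The 2 that fell in ARNoC, Ifit2 and Ifitm1, were 22.2% of those that fell in WT. Without ARNoC testosterone library 3 the count that fell in ARNoC was 5, beside 2804 of all 15261 genes in that fit. When libraries were scaled to their total counts, which moved the median of all genes to -0.44 in WT and -0.36 in ARNoC, 3 members rose and 27 fell in WT, and 7 rose and 12 fell in ARNoC. Of all 15261 genes, 1099 rose and 9120 fell in WT under this scaling, and 1178 rose and 7548 fell in ARNoC. The members' median was then -0.62 in WT and -0.11 in ARNoC.

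**Figure D2:**
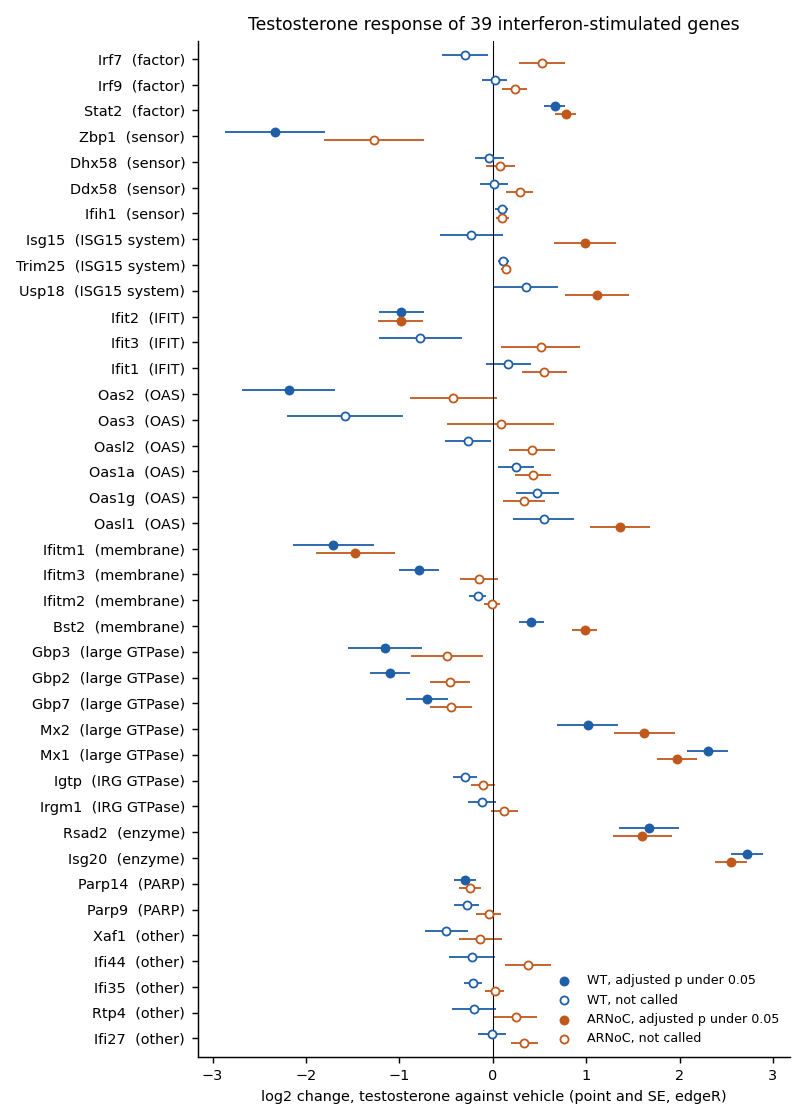
Log2 change with testosterone against vehicle (x axis) for each of the 39 members, ordered by role, as edgeR estimates with bars of 1 standard error; blue is WT, orange is ARNoC, and filled points have an adjusted p under 0.05. Isg20 and Mx1 lie farthest to the right in both genotypes, and Zbp1 and Oas2 farthest to the left in WT.

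Isg20 rose most of the 39 members in both genotypes. Isg20, an exonuclease that degrades single-stranded RNA, had 113, 164, 104, 117 and 100.1 normalized counts in WT vehicle libraries 1 to 5 and 887, 1030.1, 642, 819.9 and 541 with testosterone. The ARNoC libraries gave 84.1, 128, 113, 112 and 110.2 with vehicle and 564, 743, 724, 530.3 and 631 with testosterone. The highest vehicle library of either genotype was far below the lowest testosterone library. Isg20 rose 6.604-fold in WT (log2 2.72 ± 0.17, adjusted p = 3.82e-10) and 5.85-fold in ARNoC (log2 2.55 ± 0.17, adjusted p = 8.62e-10), where ± gives the standard error. Rsad2, or viperin, makes a nucleotide analogue that stops viral RNA synthesis. Its WT values were 84.7, 38.4, 54.7, 71.3 and 85.2 with vehicle and 229, 252, 219, 113 and 246 with testosterone, so that WT testosterone library 4 stood well below the other 4 but above every WT vehicle library. In ARNoC they were 51.8, 81.7, 128, 55.4 and 54.6 with vehicle and 123, 220.1, 256, 373 and 149.6 with testosterone, and here ARNoC vehicle library 3 overlapped the testosterone group. The fitted increase of Rsad2 was 3.19-fold in WT (adjusted p = 0.000344) and 3.03-fold in ARNoC (adjusted p = 0.000476).

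Both Mx genes, which encode dynamin-like GTPases that trap viral nucleocapsids, rose in both genotypes. Mx1 is known to carry a disruptive allele in C57BL/6J mice, so its level is a transcript measure. The WT libraries had 58.9, 40.6, 49.7, 46.3 and 58.6 normalized counts of Mx1 with vehicle and 289, 262, 251, 208 and 239 with testosterone. For ARNoC the vehicle values were 36.7, 73.5, 91.96, 41.8 and 69.5 and the testosterone values 208, 256, 255, 328 and 180.4. Neither genotype's groups overlapped, and the increase was 4.93-fold in WT (log2 2.30 ± 0.22, adjusted p = 8.17e-08) and 3.93-fold in ARNoC (log2 1.97 ± 0.21, adjusted p = 4.66e-07). Mx2 was scarcer, at 33.1, 19.8, 18.2, 12.97 and 24.5 in WT vehicle and 43.1, 40.1, 24.8, 57.6 and 50.8 in WT testosterone libraries. ARNoC vehicle libraries had 15.1, 24.1, 22.8, 15.7 and 17.6 and testosterone libraries 41.5, 43.3, 117, 58.2 and 34.4. The WT groups overlapped in Mx2, since vehicle library 1 exceeded testosterone library 3, and the ARNoC groups did not. Its increase was 2.02-fold in WT (adjusted p = 0.0184) and 3.08-fold in ARNoC (adjusted p = 0.00052). The WT call for Mx2 was lost when library 4 of WT vehicle was left out (adjusted p = 0.0521), when library 4 of WT testosterone was (adjusted p = 0.059) and under total-count scaling.

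Of the 3 transcription factors, Stat2 rose and Irf7 and Irf9 did not pass. Stat2, the subunit that gives ISGF3 its activation domain, had 941, 843, 732, 685 and 638 normalized counts with vehicle and 1414, 1008, 1159, 1256 and 1198 with testosterone in WT. The ARNoC values were 682, 933, 698, 758 and 712 and 1170.3, 1347, 1383, 1445 and 1126. All 10 testosterone libraries were above all 10 vehicle libraries. The rise was 1.58-fold in WT (log2 0.66 ± 0.11, adjusted p = 0.000119) and 1.72-fold in ARNoC (log2 0.78 ± 0.11, adjusted p = 1.85e-05), and the WT call was lost under total-count scaling, where the log2 change was 0.24. Irf9, the DNA-binding subunit of ISGF3, had 1021, 759.5, 756, 656 and 672 with vehicle and 887, 642, 719.7, 821 and 821 with testosterone in WT. In ARNoC it had 618, 736, 645, 773 and 572 and 714, 793, 929.8, 879 and 589.9. These groups overlapped in both genotypes, and the log2 change was 0.02 ± 0.13 in WT (adjusted p = 0.923) and 0.23 ± 0.13 in ARNoC (adjusted p = 0.178). Irf7, which drives the later wave of interferon production, had 724, 252, 382, 315 and 479 and 403, 255, 256, 415 and 404 in WT vehicle and testosterone libraries. Its ARNoC values were 311, 362, 284, 416 and 276 with vehicle and 476, 407, 611, 582 and 279 with testosterone. The groups of each genotype overlapped, WT vehicle library 1 being the highest of all 20, and the log2 change was -0.30 ± 0.25 in WT (adjusted p = 0.362) and 0.53 ± 0.25 in ARNoC (adjusted p = 0.102).

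Within the ISG15 system, Isg15 and Usp18 were called in ARNoC and not in WT. Isg15 is a ubiquitin-like protein that is attached to other proteins, and Usp18 removes it and also dampens the type I receptor. Isg15 had 76.4, 39.5, 40.6, 46.3 and 90.5 normalized counts in WT vehicle and 56.97, 49.5, 35.7, 58.7 and 46.6 in WT testosterone libraries. The ARNoC values were 38.8, 51.9, 31.9, 51.3 and 20.4 with vehicle and 60.6, 73.8, 149, 64.2 and 35.6 with testosterone. ARNoC testosterone library 3 was far above the rest of its group, and both pairs of groups overlapped. The log2 change of Isg15 was -0.23 ± 0.33 in WT (adjusted p = 0.617) and 0.98 ± 0.33 in ARNoC (adjusted p = 0.0255), and without ARNoC testosterone library 3 the latter was 0.56 (adjusted p = 0.165). The call was also lost without ARNoC vehicle library 3 (adjusted p = 0.0571) or 5 (adjusted p = 0.0625). Usp18 had 139, 59.3, 46.4, 60.2 and 68.2 and 140.1, 76.6, 58.9, 96.3 and 101 in WT, and 46.01, 72.2, 90.4, 85.8 and 47.2 and 113, 126, 258, 173 and 64.1 in ARNoC, vehicle before testosterone. Again library 3 led the ARNoC testosterone group, and the groups of both genotypes overlapped. Usp18 changed by log2 0.35 ± 0.35 in WT (adjusted p = 0.442) and rose by 1.11 ± 0.34 in ARNoC (adjusted p = 0.0147), or 0.77 without library 3 (adjusted p = 0.0778). Trim25, the ubiquitin ligase that activates the sensor Ddx58, was called in neither genotype.

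**Figure D3:**
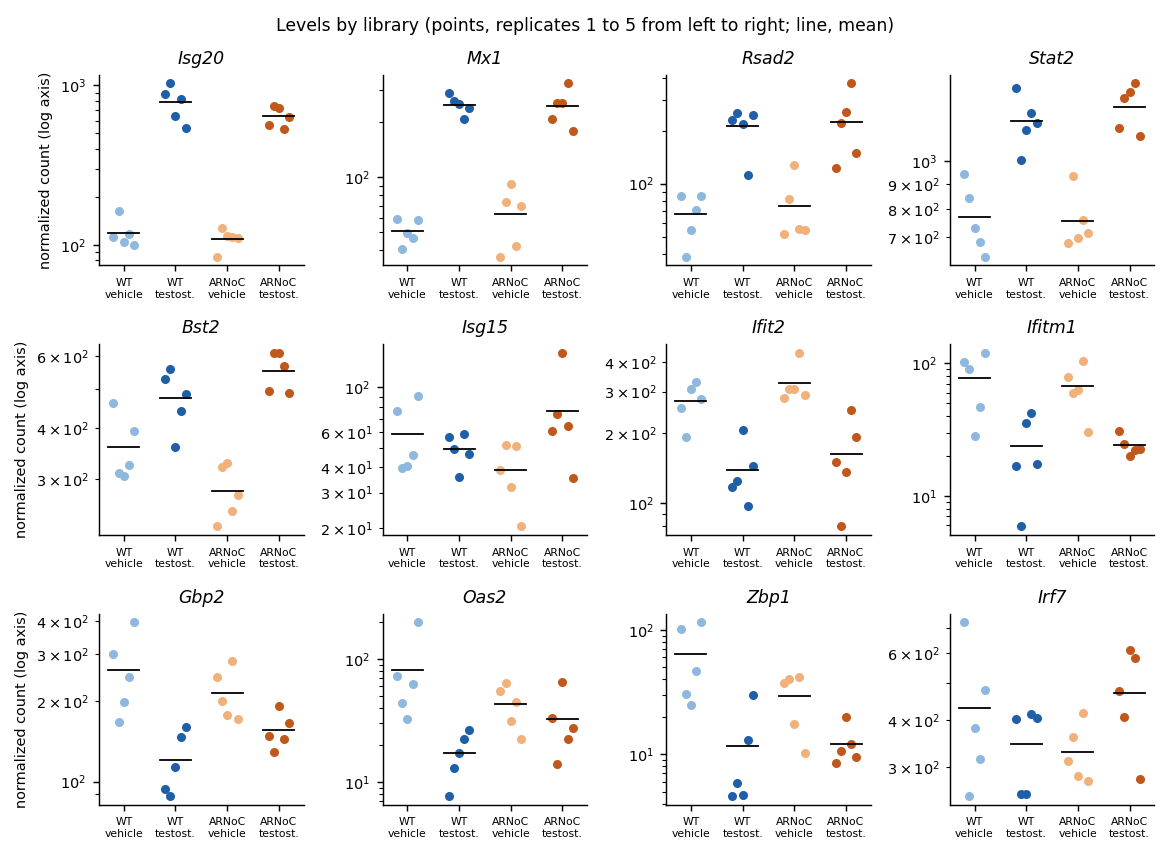
Normalized counts (log axis) of 12 members in each of the 20 libraries, where each point is 1 library, replicates run from 1 to 5 from left to right and the line is the group mean. The vehicle and testosterone groups of Isg20, Mx1 and Stat2 do not overlap in either genotype, while those of Isg15 and Irf7 do.

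Oasl1 rose in ARNoC while Oas2 fell in WT, although both belong to the oligoadenylate synthetase family. Oas2 makes the RNA-like messenger that switches on RNase L, and Oasl1 is a family member without that activity. The WT libraries had 73.3, 43.9, 32.3, 62.1 and 199 normalized counts of Oas2 with vehicle and 7.699, 12.96, 17.1, 22.3 and 26.6 with testosterone. The ARNoC libraries had 55.4, 63.3, 31.2, 44.98 and 22.2 and 32.95, 14.05, 65.6, 22.2 and 27.3. WT vehicle library 5 was the highest by a wide margin, the WT groups did not overlap and the ARNoC groups did. Oas2 fell by 2.19 ± 0.49 on the log2 scale in WT (adjusted p = 0.00152), or by 1.56 without WT vehicle library 5 (adjusted p = 0.00704), and its ARNoC change was -0.43 ± 0.47 (adjusted p = 0.508). Oasl1 had 63.01, 18.7, 19.9, 28.7 and 42.6 and 56.97, 54.2, 35.7, 49.3 and 53.3 in WT vehicle and testosterone libraries. Its ARNoC values were 28.04, 29.8, 37.2, 24.1 and 15.7 with vehicle and 57.4, 77.3, 117, 56.4 and 40.4 with testosterone. The WT groups overlapped, the ARNoC groups did not, and Oasl1 changed by log2 0.55 ± 0.33 in WT (adjusted p = 0.196) and rose by 1.36 ± 0.32 in ARNoC (adjusted p = 0.00249). Without WT vehicle library 1 Oasl1 passed in WT too, at 0.87 (adjusted p = 0.0372). Oas1a, Oas1g, Oas3 and Oasl2 were called in neither genotype. Oas3 was at the threshold in WT, with a log2 change of -1.58 ± 0.62 (adjusted p = 0.0508), and passed with DESeq2 (adjusted p = 0.0354) and limma-trend (adjusted p = 0.0334). Reads from Oas1a and Oas1g, which are close copies, may have been shared between them.

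The membrane proteins that hinder virus at the cell surface or in endosomes diverged. Bst2 had 459.7, 311, 304, 325 and 393 normalized counts with vehicle and 527, 557, 359.8, 442 and 484 with testosterone in WT. In ARNoC it had 229, 321, 328, 250.02 and 274 and 493, 609.9, 612, 567 and 487. The WT groups overlapped, and every ARNoC testosterone library was above every ARNoC vehicle library. Bst2 rose 1.33-fold in WT (log2 0.41 ± 0.13, adjusted p = 0.0185) and 1.98-fold in ARNoC (log2 0.99 ± 0.13, adjusted p = 8.04e-06). Omitting library 3 of WT vehicle, or library 1, 2 or 5 of WT testosterone, ended the WT call (adjusted p from 0.052 to 0.101), and under total-count scaling its change was -0.02. Ifitm1 had 103, 90.002, 28.2, 47.2 and 120.3 and 16.9, 5.89, 35.7, 42.3 and 17.5 in WT, and 79.1, 60.2, 63.1, 104 and 30.6 and 30.8, 24.6, 19.9, 22.2 and 22.6 in ARNoC, vehicle before testosterone. It spread widely within the vehicle groups, and the groups overlapped in both genotypes: WT vehicle library 3 was below WT testosterone libraries 3 and 4. Ifitm1 fell 3.27-fold in WT (adjusted p = 0.00376) and 2.77-fold in ARNoC (adjusted p = 0.00992).

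Ifitm3 had 1483, 1242, 856, 941 and 1495 normalized counts with vehicle and 574, 576, 695, 801 and 806 with testosterone in WT, and these groups did not overlap. The ARNoC values, 1119, 1116.5, 1006, 1624 and 585 with vehicle and 1099, 829, 1227, 952 and 775 with testosterone, overlapped, with ARNoC vehicle libraries 4 and 5 at the extremes. Ifitm3 fell by 0.79 ± 0.21 on the log2 scale in WT (adjusted p = 0.00581), and its ARNoC change was -0.15 ± 0.21 (adjusted p = 0.614). Ifitm2, the neighbouring gene of this cluster on chromosome 7, had the smallest changes of the 3. Its values were 1032, 1019.6, 881, 858 and 1005 and 855, 807, 892, 894 and 808 in WT, and 1010.1, 829.6, 1066, 1084 and 801 and 1048, 1050.1, 887, 858 and 893 in ARNoC, vehicle before testosterone. All 4 groups overlapped, and the log2 change was -0.16 ± 0.09 in WT (adjusted p = 0.155) and -0.01 ± 0.09 in ARNoC (adjusted p = 0.941). The IFITM genes are close paralogs, and the labels used here do not say how shared reads were counted.

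The guanylate-binding proteins, GTPases that coat and break pathogen vacuoles and respond strongly to interferon gamma, all 3 fell in WT, and in ARNoC none passed in the fit of all 20 libraries. Gbp2 had 301, 168, 199, 246 and 396 with vehicle and 93.9, 88.4, 113, 147 and 159.8 with testosterone in WT. In ARNoC it had 246, 201, 178, 282 and 171 and 149, 129, 192, 144 and 166. Every WT testosterone library was below every WT vehicle library, while the ARNoC groups overlapped. Gbp2 fell 2.14-fold in WT (log2 -1.10 ± 0.22, adjusted p = 0.000453), and its ARNoC change was -0.46 ± 0.21 (adjusted p = 0.0989). Gbp3 had 126, 41.7, 54.7, 111 and 171 and 36.96, 36.5, 32.6, 46.99 and 68.2 in WT, and 99.9, 115, 69.2, 99.4 and 39.8 and 53.1, 19.9, 91.3, 76.2 and 58.2 in ARNoC, vehicle before testosterone, with overlap in both. Gbp3 fell 2.23-fold in WT (adjusted p = 0.0251), a call that ended on omitting library 1 or 5 of WT vehicle or library 3 of WT testosterone (adjusted p from 0.0512 to 0.0903). Gbp7 fell 1.63-fold in WT without overlap (adjusted p = 0.0177), and without WT vehicle library 5 the adjusted p was 0.0579. The log2 change in ARNoC was -0.49 ± 0.38 for Gbp3 and -0.45 ± 0.22 for Gbp7. Gbp7 passed in ARNoC without ARNoC testosterone library 3 (log2 change -0.72, adjusted p = 0.011), and Gbp2 passed there when ARNoC was fitted alone (adjusted p = 0.0341). The immunity-related GTPases Igtp and Irgm1, which act on the same vacuoles, were called in neither genotype.

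Zbp1, a sensor of Z-form nucleic acid that can start necroptosis, and Ifit2, a protein that binds viral RNA, also fell. Zbp1 had 101, 30.7, 24.9, 46.3 and 115 normalized counts with vehicle and 4.62, 5.89, 4.65, 12.9 and 29.95 with testosterone in WT. The ARNoC values were 37.4, 40.5, 17.5, 41.8 and 10.2 and 8.503, 10.5, 19.9, 11.998 and 9.496. WT vehicle libraries 1 and 5 were the highest of all, and the groups overlapped in both genotypes. Zbp1 fell by 2.33 ± 0.54 on the log2 scale in WT (adjusted p = 0.00182), or by 3.15 without WT testosterone library 5, and its ARNoC change was -1.27 ± 0.54 (adjusted p = 0.0695). The ARNoC change passed with DESeq2 (adjusted p = 0.0481) and without ARNoC vehicle library 5 (adjusted p = 0.0345) or ARNoC testosterone library 3 (adjusted p = 0.0479). Ifit2 had 256, 192, 307, 329.8 and 279 and 117, 125, 206, 97.5 and 144 in WT vehicle and testosterone libraries. Its ARNoC values were 280.4, 307, 307, 439 and 291 with vehicle and 149.9, 79.6, 136, 250.2 and 192 with testosterone. The ARNoC groups did not overlap, and in WT testosterone library 3 was above vehicle library 2. Ifit2 fell 1.97-fold in WT (log2 -0.98 ± 0.24, adjusted p = 0.00313) and 1.98-fold in ARNoC (log2 -0.99 ± 0.24, adjusted p = 0.00273). The other IFIT genes, Ifit1 and Ifit3, were not called, with log2 changes of 0.17 ± 0.24 and -0.77 ± 0.44 in WT and 0.55 ± 0.24 and 0.51 ± 0.43 in ARNoC, and Ifit1 passed in ARNoC only without ARNoC testosterone library 5 (adjusted p = 0.0248). Parp14, an ADP-ribosyltransferase, fell 1.23-fold in WT (adjusted p = 0.0457), with a log2 change of -0.25 ± 0.12 in ARNoC, which passed without ARNoC testosterone library 3 (adjusted p = 0.0187). The WT call of Parp14 was lost without any 1 of WT vehicle libraries 1, 2 and 5, WT testosterone libraries 2 and 5, and ARNoC vehicle libraries 2 and 3 (adjusted p from 0.0514 to 0.116).

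The remaining members changed little. In all, 21 of 39 were called in neither genotype. Besides Irf7, Irf9, Ifit1, Ifit3 and Oas3, the 16 others had log2 changes from -0.50 to 0.48 in WT and from -0.13 to 0.43 in ARNoC. They include the cytoplasmic RNA sensors Ifih1 and Ddx58 and their regulator Dhx58, as well as Ifi27, Ifi35, Ifi44, Rtp4, Xaf1 and Parp9. The vehicle and testosterone libraries did not overlap upward for 4 members in WT (Stat2, Isg20, Mx1 and Rsad2), where 15.2% of all genes had such separation. Downward they did not overlap for 5 (Ifitm3, Oas2, Gbp2, Gbp7 and the uncalled Parp9), against 11.9% of all genes. In ARNoC the groups separated upward for 6 members (Stat2, Isg20, Mx1, Mx2, Oasl1 and Bst2), against 12.4% of all genes, and downward for Ifit2 alone, against 10.7%. Exons of 8 members (Irf7, Irf9, Dhx58, Ifi35, Oasl1, Gbp2, Igtp and Parp9) overlap those of another counted gene, and no source used here states the strand setting of the counting.

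The genotypes were then compared directly. With vehicle, 0 of 39 members were called between ARNoC and WT, against 0.321% of all genes, and 2 had an unadjusted p under 0.05, as 7.49% of all genes did, Bst2 at log2 -0.34 ± 0.13 and Zbp1 at -1.09 ± 0.49. With testosterone, 0 of 39 were called, against 1.69% of all genes, and 2 had an unadjusted p under 0.05, against 14.7% of all genes, Ifi27 at 0.45 ± 0.15 and Ifitm3 at 0.50 ± 0.21. The smallest adjusted p among members in edgeR was 0.479 with vehicle and 0.139 with testosterone. DESeq2, limma-voom and limma-trend also called 0 members in both comparisons. Of all genes, they called 71, 18 and 29 up and 66, 35 and 27 down with vehicle, in that order. With testosterone they called 200, 110 and 108 up and 298, 138 and 169 down. The median log2 difference of ARNoC from WT was -0.15 with vehicle and 0.17 with testosterone, beside 0.00098 and 0.012 for all genes. The first was -0.055 without WT vehicle library 1, and the second 0.091 without ARNoC testosterone library 3.

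The interaction, the ARNoC response minus the WT response, was the test of whether the genotypes differed in their change with testosterone. It called 0 of 39 members in edgeR, DESeq2, limma-voom and limma-trend, against 0% of all genes in edgeR. Of all genes, DESeq2 called 12 up and 17 down, limma-voom 0 either way, and limma-trend 0 up and 1 down. An unadjusted p under 0.05 was reached by 7 members, and 8.56% of all genes had one. The largest of these differences were 1.76 ± 0.68 for Oas2, 1.29 ± 0.61 for Ifit3 and 1.21 ± 0.47 for Isg15 on the log2 scale. Irf7 differed by 0.83 ± 0.35, Gbp2 by 0.64 ± 0.30, Ifitm3 by 0.64 ± 0.30 and Bst2 by 0.57 ± 0.19. Bst2 had the smallest adjusted p, 0.408. Thus the calls in 1 genotype alone, such as Oas2 and the guanylate-binding proteins in WT or Isg15, Usp18 and Oasl1 in ARNoC, were not shown to differ between genotypes. The log2 change was higher in ARNoC than in WT for 34 of 39 members and for 51% of all genes. With WT vehicle library 1 and ARNoC testosterone library 3 left out, 29 of 39 were higher in ARNoC.

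Members moved together within groups. WT vehicle library 1 was above its group mean for 36 of 39 members and was the highest of its group for 23, and WT vehicle library 5 was highest for 12. In ARNoC testosterone, library 3 was above the mean for 35 members and highest for 27, while library 5 was lowest for 24. ARNoC vehicle library 4 was highest for 21 members and library 5 lowest for 21, and WT testosterone library 4 was highest for 17. The median deviation of the 39 members from their group mean was 0.38 on the log2 scale in WT vehicle library 1 and 0.37 in ARNoC testosterone library 3. These values describe the libraries, and members that share a library are not independent.

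**Figure D4:**
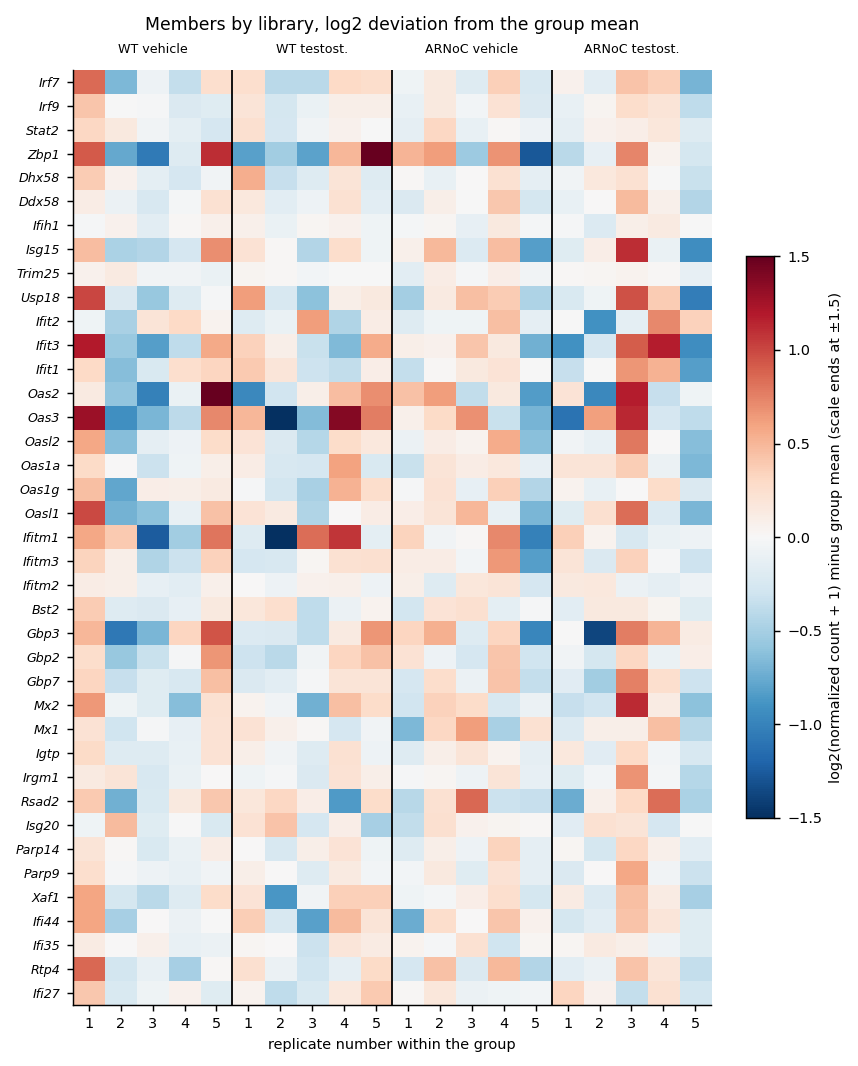
Each cell is the log2(normalized count + 1) of 1 member in 1 library minus the mean of its group, red above and blue below, with the scale ending at ±1.5. Columns 1 of WT vehicle and 3 of ARNoC testosterone are red for most members, being above the group mean for 36 and 35 of 39.

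Myeloid markers also varied between libraries, and only in part as the members did. Within its own group, their summed level was highest in WT vehicle libraries 5 (20955 normalized counts) and 1 (12696), ARNoC vehicle library 4 (14052) and ARNoC testosterone library 3 (6087). The lowest of their groups were WT vehicle library 2 (3763) and ARNoC vehicle library 5 (3395). Other libraries differed from the members. ARNoC testosterone library 5, lowest for 24 members, had 4348, above libraries 1 (3118), 2 (3082) and 4 (4017) of its group. WT testosterone library 4, highest for 17 members, had 2101, below libraries 1 (2239), 3 (2421) and 5 (4069). By the mean log2 of the members, however, WT testosterone library 5 was highest at 7.611, with library 4 at 7.609. Library 2 of this group was lowest in that mean (7.218) and in the myeloid sum (1858). With testosterone all 15 myeloid markers fell in WT (median log2 change -2.06) and 12 of 15 fell in ARNoC (median -1.14). Of all genes tested, 18.8% fell in WT and 16.8% in ARNoC, and 20.4% and 19.4% rose. Of 9 listed T and natural killer cell markers, 5 were tested and all 5 fell in both genotypes, and the list summed to 151 to 202 normalized counts with vehicle and 54.2 to 76.4 with testosterone in WT, and to 113 to 214 and 30.4 to 59.3 in ARNoC. Of these 9, Cd3d, Ncr1 and Trac were at 0 in 1, 1 and 4 libraries. Stromal and neutrophil markers varied as well. The 6 fibroblast markers summed to 6283 to 47267 normalized counts in WT vehicle libraries, lowest in library 2 and highest in library 5, and to 4943 to 37827 in ARNoC vehicle libraries, lowest in library 5 and highest in library 4. With testosterone, 3 of 6 fibroblast markers fell in WT (median log2 change -1.53) and 1 of 6 in ARNoC (-0.39), 1 of 5 endothelial markers fell in WT (-0.94) and 0 of 5 in ARNoC (-0.18), and 3 of 3 tested neutrophil markers fell in WT (-3.08) and 2 of 3 in ARNoC (-1.52). Smooth muscle markers went the other way, with a median of 0.59 in WT (0 of 5 called) and 0.78 in ARNoC (3 of 5 rose). Whether these cells account for any change of a member was not tested. Without WT vehicle library 1 and ARNoC testosterone library 3, 7 members rose and 7 fell in WT, and 9 rose and 4 fell in ARNoC. Of all 15261 genes, 2892 rose and 2649 fell in WT in that fit, and 2779 rose and 2425 fell in ARNoC. Without the 2 vehicle libraries lowest in myeloid markers, 7 members rose and 9 fell in WT, and 8 rose and 3 fell in ARNoC. Of all genes, 3221 rose and 3003 fell in WT in this second fit, and 2987 rose and 2564 fell in ARNoC.

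**Figure D5:**
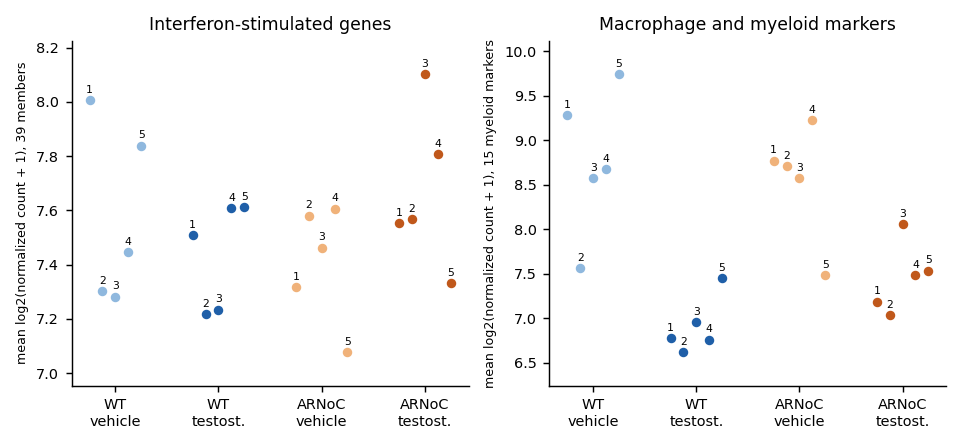
Mean log2(normalized count + 1) in each library over the 39 members (left) and over 15 macrophage and myeloid markers (right), with replicate numbers beside the points. For the members the highest libraries are ARNoC testosterone 3 at 8.10 and WT vehicle 1 at 8.01, and for the markers they are WT vehicle 5 at 9.74 and WT vehicle 1 at 9.29.

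Few counts fell on the interferon genes. None of the 10 listed interferon genes reached the filter: Ifna1, Ifna2, Ifna4, Ifna5, Ifnk, Ifnl2 and Ifnl3 had 0 counts in all 20 libraries together, Ifnb1 had 1 count, Ifng had 7 counts in 6 libraries and Ifne had 54 counts in 17. A total of 0 allows up to 3 counts over the 20 libraries, for counting error only. Of 38 listed genes of interferon production and signalling, 27 were tested. In WT, 2 rose and 9 fell (median log2 change -0.17), and in ARNoC 2 rose and 2 fell (median -0.08). The ARNoC count that fell was 6 without ARNoC vehicle library 5 or ARNoC testosterone library 3. Of all genes tested, 20.4% rose and 18.8% fell in WT, and 19.4% rose and 16.8% fell in ARNoC. Irf2, a regulatory factor that competes with Irf1 for its sites, rose by 1.05 ± 0.11 in WT and 0.90 ± 0.11 in ARNoC on the log2 scale. Irf1, an activator induced by interferon gamma, changed the other way, by -0.42 ± 0.08 in WT and -0.59 ± 0.08 in ARNoC (adjusted p = 0.000387 and 1.14e-05).

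The other signalling genes that fell in WT included Stat3 at -0.61 ± 0.16, the adaptor Tmem173 (STING) at -0.68 ± 0.14, the myeloid factor Irf5 at -1.44 ± 0.33 and the feedback inhibitor Socs3 at -1.69 ± 0.47 on the log2 scale. In ARNoC none of these 4 passed. There the changes were -0.06 ± 0.16 for Stat3, -0.24 ± 0.14 for Tmem173, -0.76 ± 0.32 for Irf5 and -1.09 ± 0.45 for Socs3. No signalling gene was called in the interaction or between genotypes. Under total-count scaling 1 signalling gene rose and 23 fell in WT, and 1 rose and 20 fell in ARNoC. That scaling called 9120 of all 15261 genes down in WT and 7548 in ARNoC.

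A wider list of 54 other interferon-stimulated genes gave 53 tested. In WT 5 rose and 26 fell (median log2 change -0.43), and in ARNoC 8 rose and 9 fell (median -0.15), with 14 falling there when ARNoC testosterone library 3 was left out. Of all genes tested, 20.4% rose and 18.8% fell in WT, and 19.4% rose and 16.8% fell in ARNoC. Under total-count scaling, 1 gene of the list rose and 44 fell in WT, and 3 rose and 28 fell in ARNoC. That scaling called 9120 of all 15261 genes down in WT and 7548 in ARNoC. Sp100, a component of nuclear bodies, fell most clearly, by -1.27 ± 0.10 in WT and -1.47 ± 0.10 in ARNoC on the log2 scale (adjusted p = 3.78e-09 and 4.55e-10). Samhd1, which depletes deoxynucleotides, changed by -0.65 ± 0.09 and -0.39 ± 0.09, and Shisa5 by -0.58 ± 0.07 and -0.43 ± 0.07. The immunoproteasome subunits Psmb8 and Psmb10 fell in WT by 0.74 ± 0.11 and 0.72 ± 0.11. Upward, Trafd1 changed by 0.60 ± 0.08 in WT and 0.40 ± 0.08 in ARNoC, and Tor3a by 0.49 ± 0.07 and 0.23 ± 0.07. Cmpk2, the nucleotide kinase encoded next to Rsad2, rose by 0.91 ± 0.19 in ARNoC, Lgals3bp by 1.03 ± 0.17, Nt5c3 by 0.50 ± 0.09 and Apol9b by 1.39 ± 0.32. The RNA helicase Ddx60 fell by 0.96 ± 0.19 in WT. In edgeR the interaction called 0 of the 53, against 0% of all genes. Responses given here for 1 genotype alone were therefore not shown to differ between genotypes. Between genotypes with testosterone, 2 of the 53 were higher in ARNoC, Epsti1 at log2 0.83 ± 0.18 (adjusted p = 0.0214) and Nt5c3 at 0.40 ± 0.09 (adjusted p = 0.0203). Of all genes tested, 1.69% were called there in either direction. With vehicle 0 of the 53 were called between genotypes, against 0.321% of all genes.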

How the data were processed

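Ventral prostate RNA was measured as TruSeq libraries, 20 in all. The authors deposited raw counts per gene symbol. The submitters' processing notes name FastQC 0.11.7, HISAT2, SAMtools 1.5, HTSeq, DESeq2 and the build mm10, and no source used here gives the annotation or strand setting. The authors also deposited normalized signal values, the counts over each library's size factor, for 23221 genes with a total of 4 or more. The deposited size factors are the ratio values, 1 per library, and normalized value times size factor returned the count within 4.2e-09. All sample columns were matched to a label.

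The 15261 genes that reached 10 normalized counts in 5 or more of the 20 libraries were scaled by trimmed means of M-values and tested with edgeR 4.0.16 in R 4.3.3 (quasi-likelihood F-test, 1 mean per group, Benjamini-Hochberg adjustment over all genes tested, threshold 0.05). The biological coefficient of variation common to all genes came to 0.214. There were 5 comparisons, namely testosterone against vehicle in each genotype, ARNoC against WT under each treatment, and the interaction. All replicate pairs differed beyond sampling noise, with a chi-square per degree of freedom of 7.25 to 41.2 over 40 pairs. The fit was tested on simulated data. Positions and exon lengths came from GENCODE M21, and promoter sequences from RefSeq on GRCm38.p6. The deposited symbol Emr1 was used for the macrophage marker Adgre1, through a RefSeq synonym.

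The members and the gene lists were chosen with earlier results of these data known. Values in every library are given for the 6 members with the largest change each way among those called in each testosterone response and for Stat2, Irf7, Irf9, Isg15, Ifitm1, Ifitm2, Ifitm3, Mx1 and Bst2. Of each other list at most 8 genes are named per comparison, those with the smallest adjusted p, besides interferon genes, and some of these are not reported here. Alternatives were the deposited size factors, total-count scaling, DESeq2 1.42.0, limma 3.58.1 (voom and trend), other filters, fits of the compared groups alone, and fits without single libraries or without both vehicle libraries that are low in fibroblast and myeloid markers.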

Additional observations from a re-analysis of the deposited data

Results flagged for a closer look

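In groups of 5 libraries, the highest or lowest value of a member stood apart from the nearest other by more than Dixon's 95% limit in 4 of 156 groups (2.56%), where chance gives about 1 in 20. Ifit2 was 439.4 normalized counts in ARNoC vehicle library 4, above the next value of 307.1. Rsad2 was 112.8 in WT testosterone library 4, below the next value of 218.7. Parp9 was 625 in WT vehicle library 1, above the next value of 515.9. Trim25 was 1439 in ARNoC testosterone library 5, below the next value of 1585.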

How the results depend on the processing

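Counts moved most under total-count scaling, which sets the sum of each library equal: members rose 3 and fell 27 in WT and fell 12 in ARNoC, signalling genes rose 1 and fell 23 in WT and rose 1 and fell 20 in ARNoC, and other interferon-stimulated genes rose 1 and fell 44 in WT and rose 3 and fell 28 in ARNoC. Of all 15261 genes, 1099 rose and 9120 fell in WT under this scaling, and 1178 rose and 7548 fell in ARNoC. Members with a positive change then numbered 7 in WT in place of 15, and 15 in ARNoC in place of 26. Of the members named with values, those that turned sign were Irf9 (-0.40), Ifit1 (-0.27), Usp18 (-0.069) and Bst2 (-0.017) in WT and Irf9 (-0.11) and Oas3 (-0.26) in ARNoC. Oas3 in ARNoC was -0.095 with limma-voom, -0.018 with limma-trend, -0.067 without both vehicle libraries low in fibroblast and myeloid markers and -0.31 without WT vehicle library 1 and ARNoC testosterone library 3, a pair chosen after seeing the data. Irf9 in WT was -0.026 with no filter beyond a total of 4. In ARNoC, 4 members fell with the compared groups alone and with that pair left out, and 6 signalling genes fell with DESeq2, without the vehicle libraries low in fibroblast markers and with that pair left out. Signalling genes rose 1 in ARNoC with no filter and with the compared groups alone, and other interferon-stimulated genes rose 5 in ARNoC with no filter and 3 in WT without the low-fibroblast libraries. The cause of these shifts was not tested.

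Leaving out 1 library at a time gave 2 to 5 members falling in ARNoC (5 without testosterone library 3). For signalling genes in ARNoC, 1 to 3 rose (1 without vehicle library 1 or 3 or testosterone library 1, 2, 4 or 5) and 1 to 6 fell (6 without testosterone library 3 or vehicle library 5, 4 without testosterone library 1, 1 without vehicle library 2). For the other interferon-stimulated genes, 5 to 9 rose in ARNoC (5 without testosterone library 2), 8 to 14 fell in ARNoC (14 without testosterone library 3) and 3 to 5 rose in WT (3 without testosterone library 1, 2 or 5). The log2 change ranged from -0.070 to 0.14 for Irf9 in WT, from -0.35 to 0.30 for Oas3 in ARNoC and from -0.30 to 0.034 for Ifitm3 in ARNoC. Member counts between genotypes and in the interaction were 0 under each alternative run. Besides the losses on leaving out 1 library given above, single calls were lost for Bst2 in WT with no filter (adjusted p = 0.0528), Gbp3 in WT with limma-voom (0.109), Parp14 in WT without the low-fibroblast libraries (0.0703), Isg15 in ARNoC with the compared groups alone (0.0665) and without the low-fibroblast libraries (0.0598), and, under total-count scaling, Stat2 (0.0841) and Mx2 (0.122) in WT and Isg15 (0.119) and Usp18 (0.0679) in ARNoC. Calls were gained too: Oas3 in WT passed in 5 alternatives and in 9 of the 20 fits that left out 1 library, and Zbp1 in ARNoC passed in 4 and in 3. Under total-count scaling Irf7 (0.0237) and Ifit3 (0.0262) passed in WT and Gbp2 (0.00635), Gbp7 (0.00888) and Parp14 (0.00108) in ARNoC. With that pair of libraries left out, Oasl1 (0.0197) passed in WT and Gbp7 (0.0132) and Parp14 (0.0275) in ARNoC. The same fit lost the calls of Gbp3 (0.0517) and Parp14 (0.0841) in WT and of Isg15 (0.129) in ARNoC. The interaction was not run with the compared groups alone, since it needs all 4 groups. The filter of 50 normalized counts left 35 members tested, without Mx2, Oas3 and Zbp1 among others. No paired analysis was possible because the labels give no replicate numbers shared between groups. Depth limits the scarcest members, such as Oas3 and Zbp1.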
